A study of Mus musculus with 42 samples.

Results

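Penk, the gene of the enkephalin precursor, and 3 genes of enzymes that can process it, Pcsk1, Furin and Cpe, were followed through sorted CD4 T cells of inflamed gut and joints. They are 4 of the 46603 genes in the deposited table of raw counts and were found there by their Ensembl identifiers. Penk and Pcsk1 were taken up because earlier results of these data had shown them far higher in TNFdARE Treg of the joint nodes and of the synovium, so those 2 differences are given below as descriptions with no test. The same holds for 3 further comparisons in which these libraries stand on the higher side. It also holds for Penk between synovial and joint-node Treg, where the joint-node libraries form the lower side. Furin and Cpe were added as enzymes of the same route. All 4 passed the filter on low counts in every fit.

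Bulk RNA came from Treg, sorted as Foxp3-GFP positive CD4 T cells, and from Tconv, the GFP negative conventional CD4 T cells. The 42 libraries fall into 16 groups and come from 3 independent experiments, A, B and C. TNFdARE mice lack the AU-rich element of the Tnf transcript, overproduce TNF and develop inflammation of the ileum and the joints. They carried the DEREG transgene, and their WT littermates carried it too. DEREG is a transgene that places a GFP-tagged diphtheria toxin receptor under Foxp3 control, so the sort reads the reporter and not the Foxp3 protein. The TNFdARE groups held 3 libraries each of ileal Treg, ileal Tconv, synovial Treg, joint-node Treg and joint-node Tconv, and 2 each of mesenteric-node Treg (B and C), mesenteric-node Tconv (B and C) and ankle synovial Tconv (A and B). The WT groups held 3 libraries each, except 2 of synovial Treg (A and B) and 1 of synovial Tconv (A). Joint nodes are inguinal plus popliteal nodes, which drain the ankle. Mouse age and the number of animals per library are not given in the labels, so p-values measure the spread between these libraries.

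Totals lay between 18261064 and 30301202 counts per library, and a count of 3 equals 0.099 to 0.164 CPM. CD4 T cell markers (Cd3e, Cd3g, Cd4, Trac and Cd5) were detected in all 16 groups, and none of the 5 stood at 0 in any group. Markers of other cells stood apart in some tissue libraries. The summed CPM of 8 fibroblast genes, none of them at 0 in either group, reached 1470 to 6110 in TNFdARE synovial Treg and 13400 to 16200 in WT synovial Treg, against 34.4 to 59.5 in Treg of the nodes, where the T cell gene Thy1 is part of the sum. B and plasma cell markers summed to 5440 CPM in TNFdARE ileal Treg A, and CD8 and NK cell markers to 985 CPM in the WT synovial Tconv library.

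Enkephalins are pentapeptides that act on opioid receptors. They are made as a long precursor, proenkephalin, in which most copies are flanked on both sides by pairs of basic residues. PC1/3, the product of Pcsk1, cuts after such pairs in the regulated secretory granules of neurons and endocrine cells. Furin cuts at basic motifs in the trans-Golgi network of most cells and acts on many growth factors, receptors and pro-enzymes. Carboxypeptidase E, the product of Cpe, then trims the basic residues left at the end of each peptide. Penk is transcribed in neurons of the striatum, in the adrenal medulla and in activated T cells, and Treg have been described as a source of enkephalin.

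The coding sequence of Penk (ENSMUSG00000045573, GRCm38, chromosome 4, 4133531 to 4138819, minus strand) shows what the enzymes have to cut. Transcript Penk-201 has 2 exons and 804 coding bases. It holds 7 enkephalin units, all in exon 2, of which 6 end in the methionine codon ATG and 1 in the leucine codon CTG. Each unit is printed with 6 bases on either side. The 15 bases of the enkephalin unit are in capitals and the flanking codons in lower case, read 5′ to 3′ on the transcript (GENCODE M21).

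Met-enkephalin unit 1, chr4:4134328-4134354: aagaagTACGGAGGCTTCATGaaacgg
Met-enkephalin unit 2, chr4:4134307-4134333: aaacggTACGGAGGCTTCATGaagaag
Met-enkephalin unit 3, chr4:4134220-4134246: aagaggTATGGCGGCTTCATGaagaag
Met-enkephalin unit 4, chr4:4134067-4134093: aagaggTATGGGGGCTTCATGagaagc
Met-enkephalin unit 5, chr4:4133995-4134021: aagcgcTACGGGGGCTTCATGagaagg
Leu-enkephalin unit 6, chr4:4133935-4133961: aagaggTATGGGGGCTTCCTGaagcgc
Met-enkephalin unit 7, chr4:4133842-4133868: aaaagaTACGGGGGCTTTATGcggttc

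A pair of lysine or arginine codons (aaa, aag, aga or cgn among others) stands directly before all 7 units and directly after 5 of them. Units 4 and 7 are followed by a single arginine codon and another residue. Units 1 and 2 share a pair of basic codons, so their printed stretches overlap.

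Among the genes of this route the levels were uneven. Levels between genes are given here as mean CPM per kilobase of exon. In TNFdARE synovial Treg, Penk stood at 406 and its relatives Pomc at 1.57 and Pdyn and Pnoc at 0. Pdyn and Pnoc did not exceed 0.151 in any of the 16 groups. Penk had the highest mean of the 4 precursors in all 16 groups, although in WT joint-node Tconv it averaged only 1.09.

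The convertases were as uneven. Pcsk2, the other granule convertase that acts on proenkephalin in neurons, did not exceed 0.0397 CPM per kilobase in any group. In TNFdARE synovial Treg, Pcsk1 averaged 116, Furin 38, Pcsk7 14.8 and Mbtps1, the site-1 protease, 14.7 CPM per kilobase. In TNFdARE ileal Treg the order was different, with Furin at 39.1 and Pcsk1 at 5.14. The granule proteins Chga and Chgb and the PC1/3 inhibitor Pcsk1n averaged 0.134, 0.0128 and 0 in TNFdARE synovial Treg. Among the opioid receptors Oprm1, Oprd1, Oprk1 and Oprl1, no group mean exceeded 0.175, while Ogfr, the opioid growth factor receptor, which is unrelated to the classical receptors, lay between 22.8 and 39 in all groups.

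**Figure D1:**
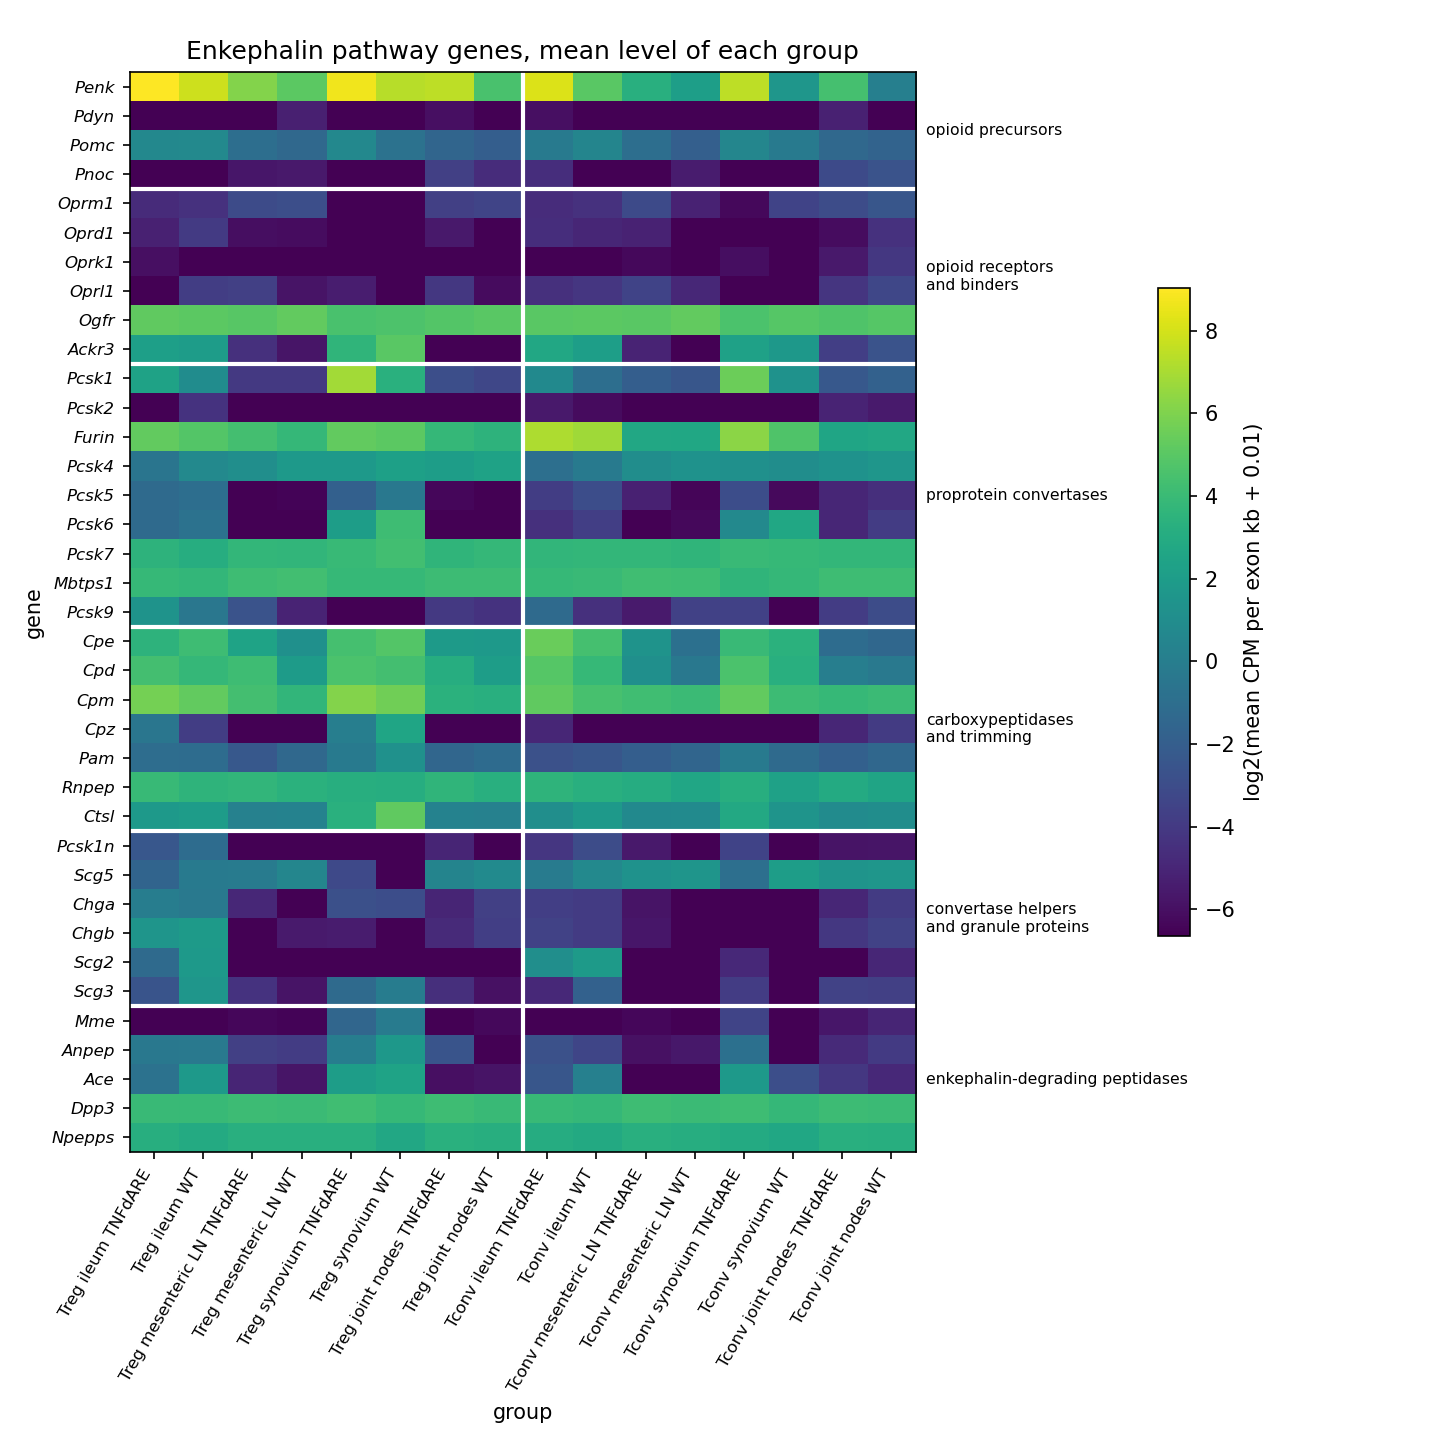
Mean level of the listed genes of the enkephalin route (rows, grouped by list) in the 16 groups (columns, TNFdARE left of WT, Treg left of Tconv), as log2 of mean CPM per kilobase of exon plus 0.01. Penk is the bright row of the opioid precursors, Pcsk1 is bright in the TNFdARE synovium, Furin is brightest in ileal Tconv, and the opioid receptor and granule protein rows are mostly dark.

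Penk was highest in tissue Treg of TNFdARE mice and lowest in joint-node Tconv of WT mice. In ileal Treg it had 1090, 779 and 694 CPM in TNFdARE mice (A, B and C) and 494, 316 and 288 CPM in WT mice. All 3 TNFdARE libraries lay above all 3 WT libraries. Penk rose in TNFdARE ileal Treg by 1.19 ± 0.23 on the log2 scale (SE, adjusted p = 0.043, edgeR's quasi-likelihood test with Benjamini-Hochberg adjustment over all genes, as in all tests below), in a comparison that called 0.729% of the genes tested. The call was lost without any 1 of the 3 TNFdARE libraries or WT C (adjusted p = 0.056 to 0.11). With both A libraries left out, the pair with the most plasma cell RNA, the change was 1.29 ± 0.17 (adjusted p = 0.026). This omission was chosen after seeing the data, and the part of plasma cell RNA was not tested.

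In ileal Tconv the estimate was larger, and the contrast between the cell types was not tested there. Penk had 423, 501 and 539 CPM in TNFdARE mice and 60.8, 49.7 and 45.9 CPM in WT mice. The lowest TNFdARE library was far above the highest WT library. The change was 3.24 ± 0.25 on the log2 scale (9.47-fold, adjusted p = 1.5e-04), where 1.31% of genes were called.

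In the mesenteric node Penk rose in both cell types by about the same factor. Treg had 120 and 107 CPM in TNFdARE mice and 61.0, 50.9 and 55.8 CPM in WT mice. This was 1.08 ± 0.19 on the log2 scale (adjusted p = 0.0061, 5.68% of genes called). Tconv had 15.3 and 16 CPM in TNFdARE mice and 8.64, 4.49 and 8.51 CPM in WT mice, a change of 1.09 ± 0.21 (adjusted p = 0.018, 2.36% of genes called). In neither cell type did the groups overlap. The difference between the 2 genotype changes was -0.01 ± 0.28 on the log2 scale (adjusted p = 1.0), in an interaction test that called 0.209% of genes. The Treg call was lost without TNFdARE B (adjusted p = 0.089) and the Tconv call without TNFdARE B or C (adjusted p = 0.066 and 0.11).

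In the joint nodes Penk was higher in TNFdARE mice in both cell types. Treg had 333, 249 and 284 CPM in TNFdARE mice and 39.6, 30.6 and 43.1 CPM in WT mice. This is the difference for which Penk was chosen, and it amounted to 2.93 ± 0.22 on the log2 scale, in a comparison that called 5.70% of genes. Tconv, which played no part in that choice, had 34.5, 29.9 and 38.1 CPM in TNFdARE mice and 1.62, 0.643 and 3.09 CPM in WT mice. Every TNFdARE Tconv library was above every WT Tconv library. The change in Tconv was 4.32 ± 0.29 on the log2 scale, or 20-fold (95% interval 13.1 to 30.6, adjusted p = 4.9e-07), where 2.79% of genes were called.

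In the synovium the differences had the same sign but did not pass the test. Treg had 770, 626 and 594 CPM in TNFdARE mice and 325 and 204 CPM in WT mice, without overlap. The estimate was 1.35 ± 0.28 on the log2 scale (adjusted p = 0.18, with 0.156% of genes called). DESeq2 called it (adjusted p = 5.2e-04), and edgeR called it without the filter on low counts (adjusted p = 0.045). Tconv had 243 and 341 CPM in TNFdARE mice and 4.87 CPM in the single WT library, so no test was made. In these synovial Treg the summed fibroblast markers were lower in TNFdARE than in WT libraries. The CD4 T cell markers summed to 2970 to 3240 CPM in TNFdARE and 2420 to 2530 CPM in WT libraries. The 5 Treg markers named below summed to 5600 to 6570 CPM in TNFdARE and 4070 to 4810 CPM in WT libraries. The part of these differences in the Penk result was not tested. Over all genes tested the median log2 difference in synovial Treg was 0.12.

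**Figure D2:**
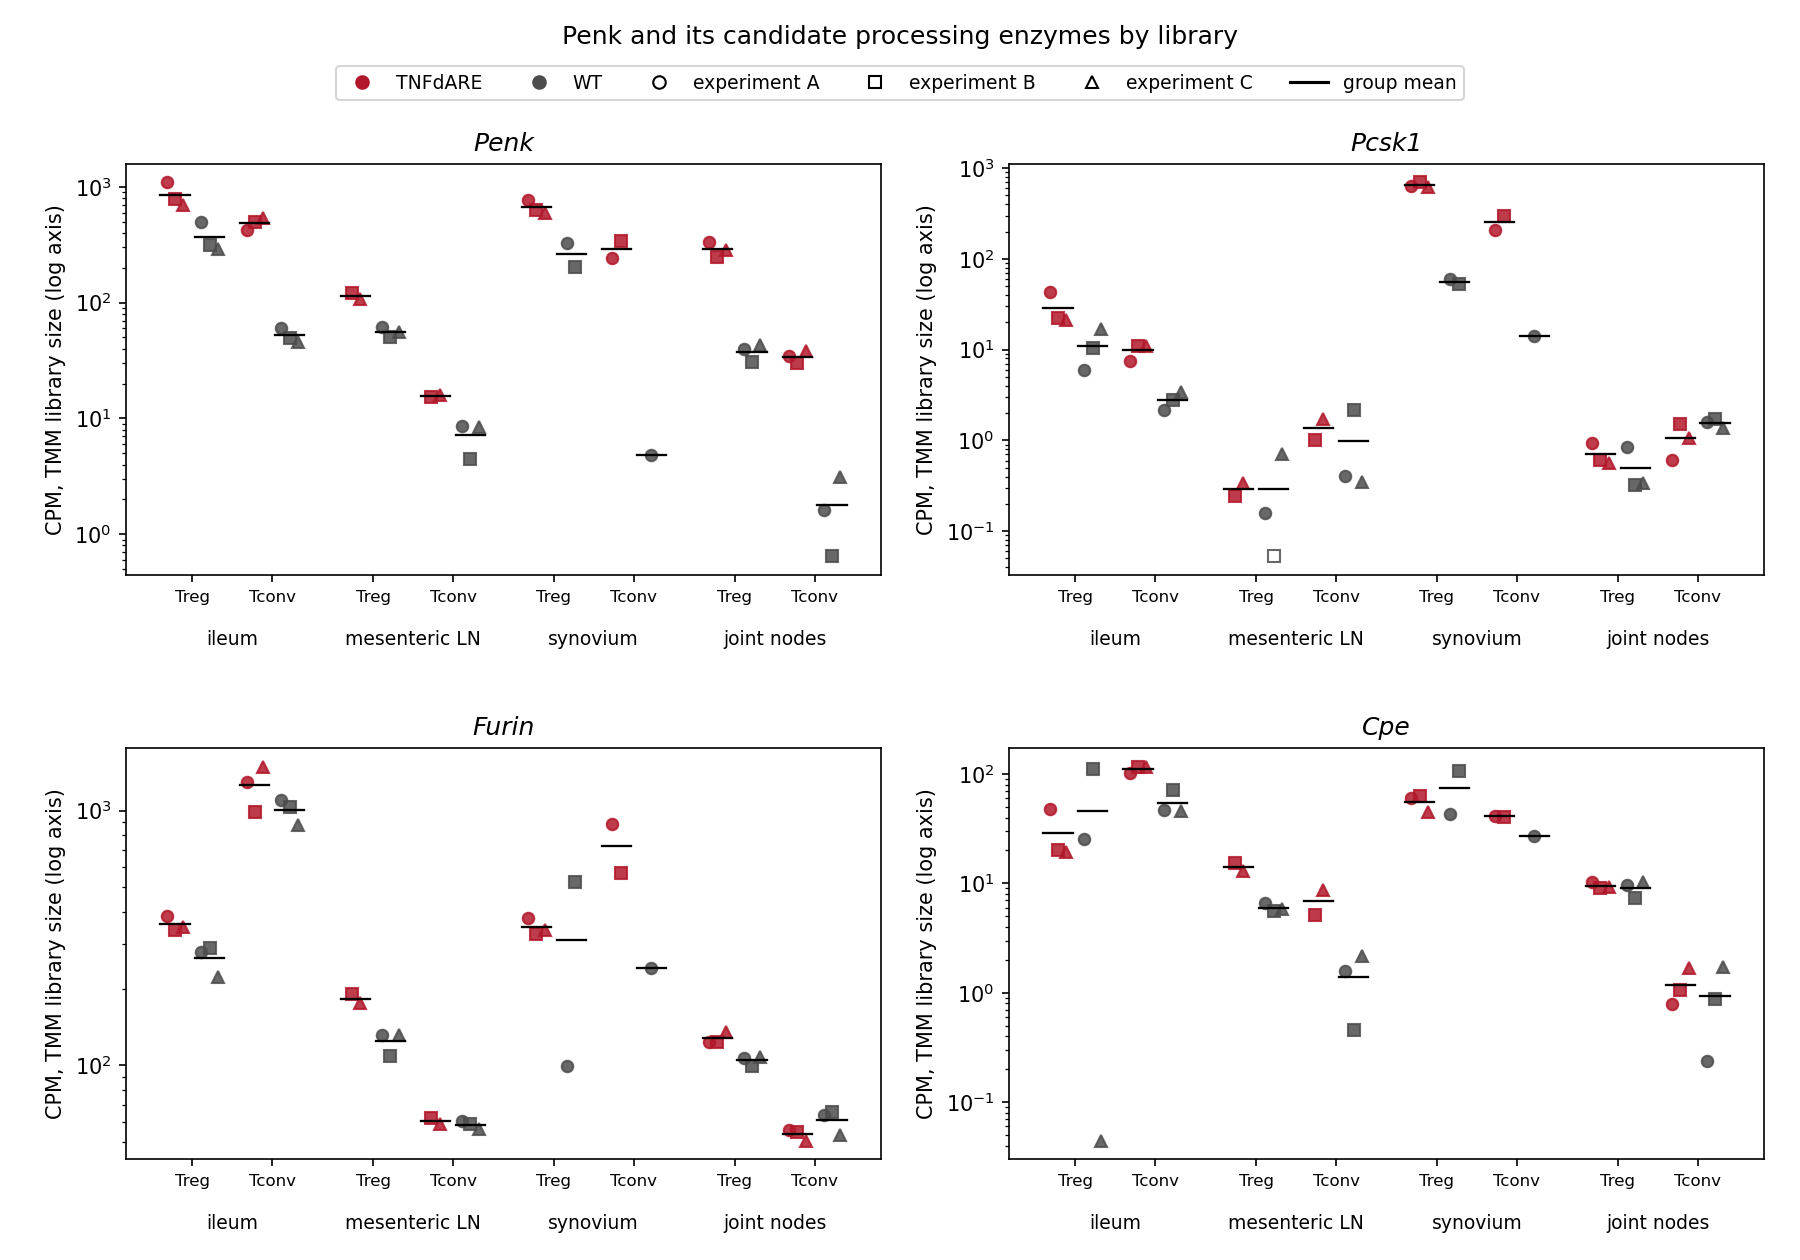
CPM of Penk, Pcsk1, Furin and Cpe in each of the 42 libraries on log axes, with 1 point per library, marker shape by experiment and a line at the group mean (TNFdARE left of WT). Penk points of TNFdARE mice lie above those of WT mice in every pair, from 1090 CPM in ileal Treg down to 0.643 CPM in WT joint-node Tconv. The open square marks the single Pcsk1 value of 0, drawn below the lowest other point.

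Penk and Foxp3 changed with the same sign in Tconv, but not by the same amount at every site. Foxp3, the transcription factor that defines Treg, was higher in TNFdARE Tconv although these cells were sorted as GFP negative. In ileal Tconv it had 200, 124 and 115 CPM in TNFdARE mice and 18.5, 13.4 and 16.7 CPM in WT mice (3.18 ± 0.22 on the log2 scale, adjusted p = 6e-05). In joint-node Tconv it had 34.9, 30.3 and 39 CPM in TNFdARE mice and 6.34, 6.29 and 7.71 CPM in WT mice (2.37 ± 0.11, adjusted p = 2.5e-08). In mesenteric-node Tconv the values were 21.4 and 36.6 CPM in TNFdARE mice and 7.11, 6.17 and 6.51 CPM in WT mice (2.10 ± 0.17, adjusted p = 6.3e-05). Foxp3 thus rose in Tconv wherever Penk did. In synovial Tconv it had 618 and 615 CPM in TNFdARE mice and 31.1 CPM in the WT library. Of 5 Treg markers (Foxp3, Il2ra, Ikzf2, Ctla4 and Lrrc32), all 5 were called higher in TNFdARE Tconv of the mesenteric and joint nodes. In ileal Tconv 3 of the 5 were. These comparisons called 2.36%, 2.79% and 1.31% of all genes, in that order. In synovial Tconv the 5 markers summed to 2890 and 2900 CPM in TNFdARE mice and 479 CPM in the WT library. In bulk RNA, Treg within the Tconv gate and Foxp3 transcripts in the other cells cannot be told apart, nor can fewer cells of a type and less RNA per cell.

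The ratio of Penk to Foxp3 CPM within a library puts the 2 genes side by side. In TNFdARE ileal Tconv it was 2.12, 4.04 and 4.68, against 0.777, 0.474 and 0.428 in TNFdARE ileal Treg. Ileal Tconv thus held more Penk per Foxp3 than ileal Treg, and so did WT ileal Tconv, at 3.28, 3.72 and 2.74. In the joint nodes TNFdARE Tconv stood at 0.987, 0.988 and 0.978 and TNFdARE Treg at 0.277, 0.230 and 0.252. In the mesenteric node TNFdARE Tconv stood at 0.714 and 0.436 and TNFdARE Treg at 0.106 and 0.0965. WT Tconv stood at 0.256, 0.102 and 0.400 in the joint nodes and at 1.22, 0.728 and 1.31 in the mesenteric node. Against WT, the ratio in TNFdARE Tconv was thus higher in the joint nodes and lower in the mesenteric node. In all 3 of these sites the Tconv ratios were above the Treg ratios of the same genotype. The TNFdARE synovium differed in this, since Tconv stood at 0.392 and 0.554 and Treg at 0.571, 0.427 and 0.419, in overlapping ranges. The part of Foxp3-positive cells in the Penk differences of Tconv was not tested.

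In Treg no Foxp3 difference between genotypes passed the test. In ileal Treg Foxp3 had 1400, 1640 and 1620 CPM in TNFdARE mice and 1220, 1050 and 1170 CPM in WT mice (0.41 ± 0.20 on the log2 scale, adjusted p = 0.42). In synovial Treg it had 1350, 1470 and 1420 CPM in TNFdARE mice and 1170 and 566 CPM in WT mice (0.72 ± 0.29, adjusted p = 0.48). At both sites every TNFdARE library lay above every WT library, for Foxp3 as for Penk. In joint-node Treg Foxp3 averaged 1140 CPM in TNFdARE and 1130 CPM in WT mice (0.00 ± 0.10 on the log2 scale, adjusted p = 1.0). In mesenteric-node Treg it averaged 1120 CPM in TNFdARE and 1000 CPM in WT mice (0.21 ± 0.16, adjusted p = 0.52), again without overlap. The Penk estimates in the same Treg were 1.19 in the ileum, 1.35 in the synovium, 2.93 in the joint nodes and 1.08 in the mesenteric node.

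**Figure D3:**
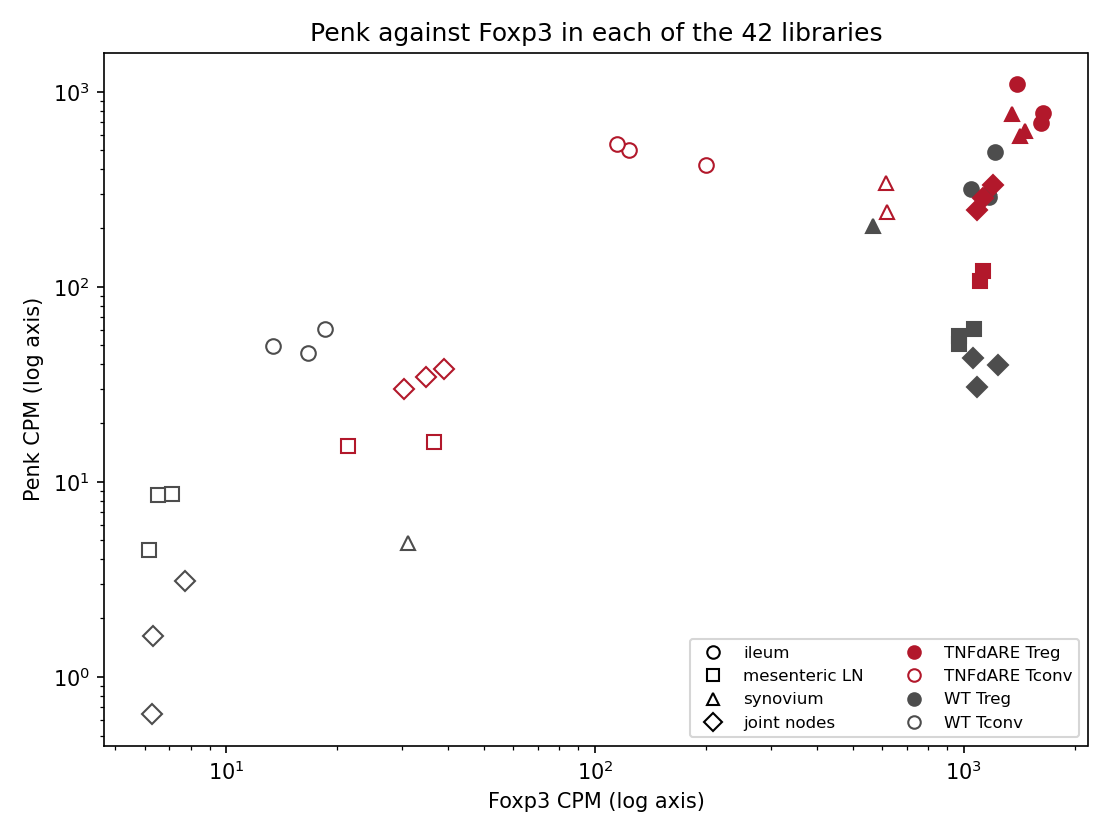
Penk CPM against Foxp3 CPM in each of the 42 libraries on log axes (filled, Treg; open, Tconv; marker shape, site). Among Treg, Foxp3 stays between 566 and 1640 CPM while Penk spans 30.6 to 1090 CPM, and the open TNFdARE Tconv points lie above and to the right of the open WT Tconv points of the same site.

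Penk was higher in Treg than in Tconv, averaged over both genotypes. The difference was 1.82 ± 0.16 on the log2 scale in the ileum (adjusted p = 3.6e-05, 14.8% of genes called) and 2.91 ± 0.15 in the mesenteric node (adjusted p = 3.9e-08, 38.6% of genes called). It was 3.78 ± 0.18 in the joint nodes (43.2% of genes called), a comparison that contains the libraries for which Penk was chosen and is therefore given with no test. In the synovium only TNFdARE mice allowed the comparison, with an estimate of 1.14 ± 0.28 (adjusted p = 0.93). That test called 0 of 17959 genes (0.0%), with 632 at an unadjusted p below 0.05. edgeR without the low-count filter called 6, and DESeq2 called 197 genes, Penk among them (adjusted p = 0.0037). By genotype, Penk in ileal Treg and Tconv averaged 366 and 52.1 CPM in WT mice and 853 and 488 CPM in TNFdARE mice. The averaged ileal estimate thus covers a wider gap in WT than in TNFdARE mice, and its dependence on genotype was not tested.

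Penk was also higher in tissue than in the draining node. In Treg the ileum exceeded the mesenteric node by 2.80 ± 0.18 on the log2 scale (adjusted p = 5.3e-06, 29.2% of genes called). The synovium exceeded the joint nodes by 1.99 ± 0.16 (37.7% of genes called). The TNFdARE and WT libraries whose difference chose Penk form the nodal side, so this value is given with no test. In Tconv the ileum exceeded the mesenteric node by 3.91 ± 0.16 (adjusted p = 3.5e-09, 61.0% of genes called), and in TNFdARE Tconv the synovium exceeded the joint nodes by 3.11 ± 0.33 (adjusted p = 1.3e-04, 31.3% of genes called). Since up to 61.0% of genes passed in these comparisons, a call alone places Penk among many. Most of the 8 fibroblast markers were called higher in tissue in each of these comparisons too. Their part in the tissue to node differences of Penk, Pcsk1 and Furin was not tested.

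Ordered by group mean, Penk ran from 853 ± 206 CPM in TNFdARE ileal Treg (SD, n = 3) through 663 CPM in TNFdARE synovial Treg and 488 CPM in TNFdARE ileal Tconv to 1.78 CPM in WT joint-node Tconv, a 478-fold span. Of the 15 neighbouring pairs in this order, 8 had overlapping ranges. TNFdARE synovial Tconv, TNFdARE joint-node Treg and WT synovial Treg, at 292, 289 and 264 CPM, did not differ beyond their spread. TNFdARE joint-node Tconv, at 34.2 CPM, overlapped WT joint-node Treg, at 37.7 CPM. On the authors' FPKM scale 14 of the 16 groups kept their rank and none moved by more than 1.

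A transcript on the other strand, A830012C17Rik, overlaps the first exon of Penk, and the library kit does not mark strand. It had 0 to 350 counts per library, a median of 0.314% of the Penk counts and at most 5.38%, in WT synovial Treg A.

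Pcsk1 (ENSMUSG00000021587, GRCm38, chromosome 13, 75089826 to 75134861, plus strand) had its highest group means in the TNFdARE synovium, followed by WT synovial Treg. In synovial Treg it had 638, 694 and 612 CPM in TNFdARE mice and 59.9 and 52.3 CPM in WT mice. These values chose Pcsk1, and the difference amounted to 3.55 ± 0.24 on the log2 scale. Synovial Tconv had 208 and 299 CPM in TNFdARE mice and 14.1 CPM in the single WT library. Both TNFdARE Tconv libraries lay above every WT library of the synovium, Treg included.

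Away from the synovium Pcsk1 did not exceed 42.7 CPM, but TNFdARE ileal Treg lay above the single WT synovial Tconv library, at 14.1 CPM. In ileal Treg Pcsk1 had 42.7, 22.4 and 21.3 CPM in TNFdARE mice and 5.97, 10.3 and 16.7 CPM in WT mice, without overlap. The estimate was 1.35 ± 0.42 on the log2 scale and did not pass (adjusted p = 0.20), while DESeq2 called it (adjusted p = 0.040). Without both A libraries it was 0.68 (adjusted p = 0.47). In ileal Tconv it had 7.46, 11 and 11 CPM in TNFdARE mice and 2.15, 2.78 and 3.38 CPM in WT mice. There too the groups did not overlap, with an estimate of 1.84 ± 0.43 (adjusted p = 0.078, and 0.0020 with DESeq2). In the node libraries Pcsk1 did not exceed 2.18 CPM, and no genotype difference passed.

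The tissue to node differences of Pcsk1 were the largest of the 4 genes in Treg. Synovial Treg exceeded joint-node Treg by 8.28 ± 0.22 on the log2 scale (310-fold), a comparison that contains the libraries for which Pcsk1 was chosen and is therefore given with no test. Ileal Treg exceeded mesenteric-node Treg by 5.95 ± 0.85. The mesenteric-node Treg libraries had only 0 to 14 counts of Pcsk1, so the gene passed the low-count filter through the ileal libraries. The difference is therefore given with no test. The size of this difference rests on node values near the floor. TNFdARE synovial Tconv, which played no part in the choice, exceeded TNFdARE joint-node Tconv by 7.94 ± 0.29 (246-fold, adjusted p = 3.4e-07). Ileal Tconv exceeded mesenteric-node Tconv by 2.18 ± 0.45 (adjusted p = 0.0012).

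Between cell types Pcsk1 took different signs at different sites, and the difference between sites was not tested. It was higher in ileal Treg than in ileal Tconv, by 1.78 ± 0.30 on the log2 scale (adjusted p = 0.0024). In the joint nodes Treg averaged 0.604 CPM and Tconv 1.31 CPM, a difference of -1.08 ± 0.37 (adjusted p = 0.030) that rests on 7 to 40 counts per library. It was lost without any 1 of 8 of the 12 libraries (adjusted p = 0.051 to 0.075) and without the low-count filter (adjusted p = 0.12). In the TNFdARE synovium Treg had more than Tconv in every library, with an estimate of 1.30 ± 0.21. These Treg libraries chose Pcsk1, so no test is given.

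Precursor and convertase were both abundant in the TNFdARE synovium. The 3 Treg libraries held 594 to 770 CPM of Penk with 612 to 694 CPM of Pcsk1, and the 2 Tconv libraries held 243 and 341 CPM of Penk with 208 and 299 CPM of Pcsk1. In other groups with high Penk, Pcsk1 was much lower. WT synovial Treg held 325 and 204 CPM of Penk with 59.9 and 52.3 CPM of Pcsk1. These CPM are not scaled to exon length. TNFdARE ileal Treg held 694 to 1090 CPM of Penk with 21.3 to 42.7 CPM of Pcsk1, and TNFdARE joint-node Treg held 249 to 333 CPM of Penk with 0.567 to 0.942 CPM of Pcsk1.

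Furin (ENSMUSG00000030530, GRCm38, chromosome 7, 80388585 to 80405436, minus strand) differed more by site and cell type than by genotype. In ileal Tconv it had 1300, 984 and 1490 CPM in TNFdARE mice and 1100, 1030 and 876 CPM in WT mice, in overlapping ranges. In ileal Treg it had 387, 340 and 349 CPM in TNFdARE mice and 279, 289 and 222 CPM in WT mice (0.42 ± 0.15 on the log2 scale, adjusted p = 0.28). Ileal Tconv was thus the group of highest Furin in both genotypes. Ileal Treg were lower than ileal Tconv by 1.86 ± 0.11 on the log2 scale (adjusted p = 2e-06), with no overlap among the 12 libraries.

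In the nodes the order of the cell types was the other way round. In the mesenteric node Furin had 191 and 175 CPM in TNFdARE Treg and 132, 109 and 132 CPM in WT Treg, against 62.0 and 59.1 CPM in TNFdARE Tconv and 60.3, 58.9 and 56.2 CPM in WT Tconv. Treg exceeded Tconv by 1.35 ± 0.07 on the log2 scale there (adjusted p = 6.8e-08) and by 1.03 ± 0.07 in the joint nodes (adjusted p = 3.6e-08). Mesenteric-node Treg were also the 1 setting in which Furin passed a genotype test, with a change of 0.61 ± 0.10 (adjusted p = 0.0044), lost without TNFdARE B (adjusted p = 0.092). The interaction with cell type was 0.58 ± 0.15 and did not pass (adjusted p = 0.21), although it did without the low-count filter (0.57 ± 0.16, adjusted p = 0.035).

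In joint-node Treg Furin had 124, 124 and 135 CPM in TNFdARE mice and 107, 99.7 and 108 CPM in WT mice. The groups did not overlap, but the estimate of 0.28 ± 0.10 did not pass (adjusted p = 0.13, and 0.032 with DESeq2). Joint-node Tconv had 55.6, 54.6 and 50.7 CPM in TNFdARE mice and 63.8, 65.4 and 53.1 CPM in WT mice, in overlapping ranges.

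In the synovium a single library decided the Furin result. Synovial Treg had 378, 327 and 340 CPM in TNFdARE mice and 99.0 and 523 CPM in WT mice. The 2 WT libraries lay on opposite sides of all 3 TNFdARE libraries, and the estimate was 0.18 ± 0.58 on the log2 scale (adjusted p = 0.94). It became 1.82 (adjusted p = 0.023) without WT B and -0.57 (adjusted p = 0.61) without WT A. Synovial Tconv had 885 and 568 CPM in TNFdARE mice and 241 CPM in the WT library. TNFdARE synovial Tconv exceeded TNFdARE synovial Treg in every library, by an estimate of -1.10 ± 0.57 for Treg over Tconv (adjusted p = 1.0).

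All 4 tissue to node differences of Furin passed. They were 4.24 ± 0.12 in ileal over mesenteric-node Tconv (adjusted p = 2.8e-10) and 3.78 ± 0.20 in synovial over joint-node TNFdARE Tconv (adjusted p = 2.2e-06). In Treg they were 1.02 ± 0.09 for the ileum (adjusted p = 4.4e-05) and 1.49 ± 0.32 for the synovium (adjusted p = 0.0057). The difference between the cell types was not tested.

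Cpe (ENSMUSG00000037852, GRCm38, chromosome 8, 64592542 to 64693054, minus strand) was highest in ileal Tconv and in synovial Treg. In ileal Tconv it had 103, 116 and 117 CPM in TNFdARE mice and 46.5, 71.2 and 45.7 CPM in WT mice, without overlap. The estimate of 1.06 ± 1.11 on the log2 scale did not pass (adjusted p = 1.0), with a spread shared with the Treg libraries of the same fit. Those Treg had 47.7, 20 and 19.3 CPM in TNFdARE mice and 25.5, 112 and 0.0446 CPM in WT mice, and the last value is 1 count. WT ileal Treg thus held both the highest and the lowest Cpe value of the ileal Treg.

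Markers of other cells were uneven over the same libraries, and only some followed the order of Cpe. In WT ileal Treg A, B and C, the fibroblast markers summed to 183, 917 and 37.1 CPM, the neuron and glia markers to 9.71, 45.4 and 2.73 CPM, and 6 granule protein genes to 42, 48.6 and 0 CPM. These 3 sums were highest in B and lowest in C, as Cpe was. Other sums were highest in A, with 1940, 594 and 356 CPM of B and plasma cell markers, 388, 217 and 42.6 CPM of epithelial markers, 107, 9.13 and 0.0894 CPM of myeloid markers and 169, 0.803 and 0 CPM of enteroendocrine markers. In TNFdARE ileal Treg A, B and C the fibroblast sums were 2140, 363 and 46.5 CPM, in the order of Cpe. The neuron and glia sums (6.96, 4.62 and 4.06 CPM) and the epithelial sums (588, 351 and 24.2 CPM) followed it too. So did the B and plasma cell sums (5440, 372 and 119 CPM) and the myeloid sums (48.3, 8.02 and 1.32 CPM). The granule protein sums (1.64, 32.6 and 1.81 CPM) and the enteroendocrine sums (1.94, 34 and 0 CPM) ran in another order. The part of such cells in the Cpe values was not tested.

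In the mesenteric node Cpe was higher in TNFdARE mice. Tconv had 5.13 and 8.77 CPM in TNFdARE mice and 1.58, 0.461 and 2.15 CPM in WT mice. The rise of 2.28 ± 0.43 on the log2 scale passed (4.86-fold, adjusted p = 0.014), but not without TNFdARE C (1.89, adjusted p = 0.15). Treg had 15.4 and 13 CPM in TNFdARE mice and 6.65, 5.59 and 5.82 CPM in WT mice, again without overlap. The Treg estimate of 1.29 ± 0.40 did not pass (adjusted p = 0.088). With the experiment as a replicate block it was 1.42 ± 0.37 and passed (adjusted p = 0.042), as it did with DESeq2 (adjusted p = 0.014) and without the low-count filter (adjusted p = 7.8e-04).

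In the joint nodes Cpe differed between the cell types, and no genotype difference passed. Treg had 10.2, 9.13 and 9.22 CPM in TNFdARE mice and 9.72, 7.42 and 10.3 CPM in WT mice, while the 6 Tconv libraries lay between 0.238 and 1.71 CPM. Treg exceeded Tconv by 3.19 ± 0.30 on the log2 scale (9.13-fold, adjusted p = 7.9e-07), and by 1.57 ± 0.30 in the mesenteric node (adjusted p = 0.0013). In the tissues this difference did not pass. With 1 library left out, Treg over Tconv was -2.03 to -0.85 in the ileum and 0.35 to 0.57 in the TNFdARE synovium. The genotype estimate in joint-node Treg was 0.05 ± 0.37 (adjusted p = 0.96), with a 95% interval of 0.598 to 1.80-fold.

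In the synovium Cpe had 59.9, 63.6 and 44.5 CPM in TNFdARE Treg and 42.8 and 107 CPM in WT Treg, in overlapping ranges. Tissue exceeded node in Tconv by 4.65 ± 0.26 on the log2 scale for the ileum (adjusted p = 2.6e-08) and by 5.13 ± 0.57 for the TNFdARE synovium (adjusted p = 1.7e-04). Synovial Treg exceeded joint-node Treg by 2.77 ± 0.24 (adjusted p = 2.5e-05). Ileal over mesenteric-node Treg gave 1.95 ± 0.98, which did not pass (adjusted p = 0.16) but did without WT ileal Treg C (2.25, adjusted p = 0.0037). The fibroblast markers were higher in tissue than in node libraries too, and their part in these differences was not tested.

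**Figure D4:**
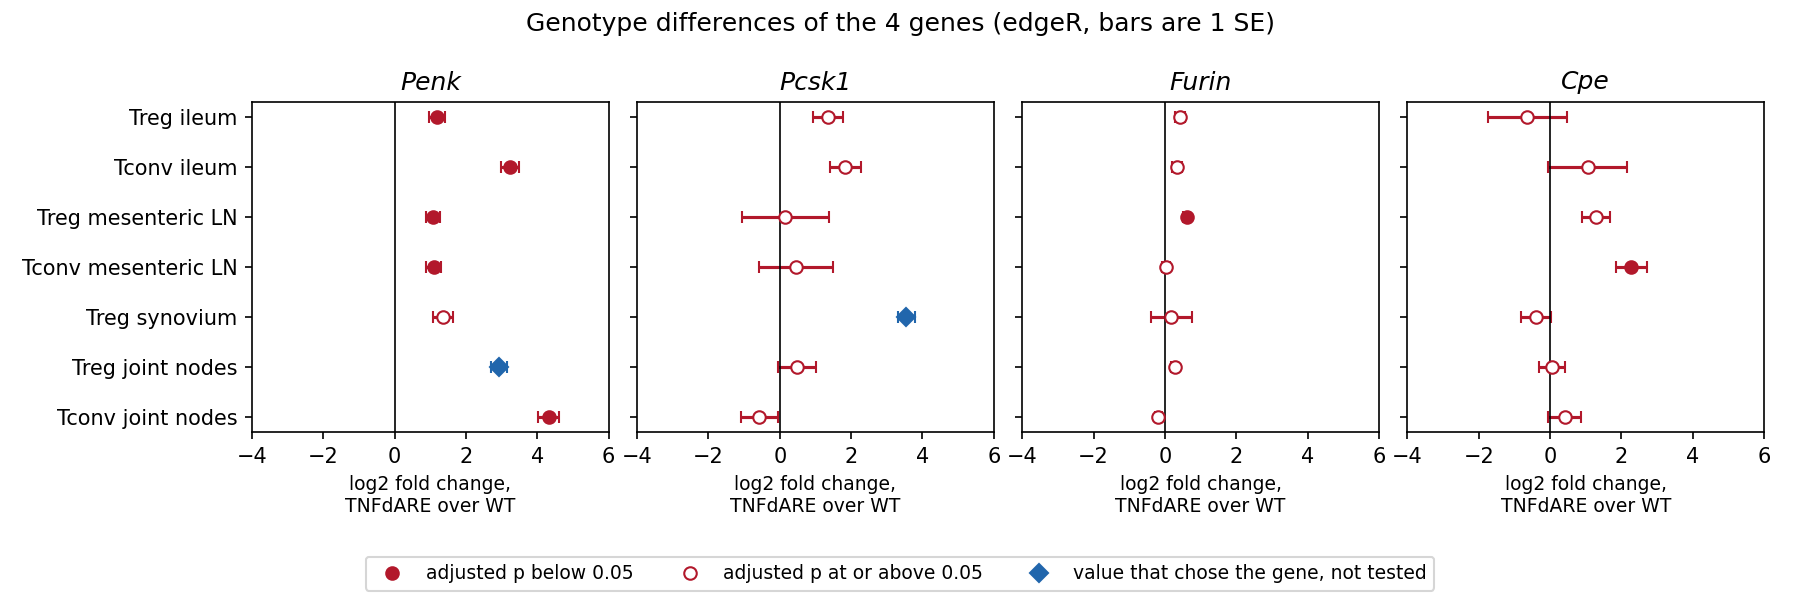
Log2 fold change of TNFdARE over WT with 1 SE for Penk, Pcsk1, Furin and Cpe in the 7 genotype comparisons with a test (filled circles, adjusted p below 0.05; open circles, at or above; diamonds, the differences that chose the gene). Penk lies right of 0 in all 7, from 1.08 to 4.32, while Furin passed only at 0.61 in mesenteric-node Treg and Cpe only at 2.28 in mesenteric-node Tconv.

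Counted over the genotype comparisons, Penk passed in 5 of 6 that did not serve its choice, Pcsk1 in 0 of 6, Furin in 1 of 7 and Cpe in 1 of 7, each time with the higher level in TNFdARE mice. The background of called genes in the same comparisons was 0.156% to 5.70%. No interaction of genotype and cell type passed for Pcsk1, Furin or Cpe in the mesenteric or the joint nodes, where the interaction tests called 0.209% and 0.449% of genes. Furin was the exception under alternatives, in the mesenteric node as given above and in the joint nodes without WT Tconv C (0.59, adjusted p = 0.025, against 0.46 and 0.32 with all libraries).

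Other genes of the route were read from lists of 9 convertases, 7 carboxypeptidases and trimming enzymes, 6 granule proteins, 5 enkephalin-degrading peptidases, 6 receptors and binders and 4 opioid precursors. Apart from the 4 genes above, the genotype calls among them were all in the trimming list, all in the nodes and all higher in TNFdARE mice. Cpd, a carboxypeptidase of the trans-Golgi network with the same trimming action, rose by 2.24 ± 0.28 on the log2 scale in mesenteric-node Treg (adjusted p = 7.9e-04), by 1.48 ± 0.31 in mesenteric-node Tconv (adjusted p = 0.028) and by 1.02 ± 0.24 in joint-node Treg (adjusted p = 0.022). Cpm, a membrane-bound carboxypeptidase, rose by 0.71 ± 0.09 in mesenteric-node Treg (adjusted p = 0.0011). Rnpep, an aminopeptidase that removes basic residues, rose by 0.36 ± 0.09 in joint-node Treg (adjusted p = 0.025) and by 0.43 ± 0.09 in joint-node Tconv (adjusted p = 0.012).

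By list and comparison, 2 of 6 tested trimming genes rose in mesenteric-node Treg, where 5.68% of all genes were called, with a median log2 change of 0.54 over the 6 against 0.01 over all genes. In mesenteric-node Tconv 2 of 6 rose, Cpe being 1 of them (2.36% of all genes called, median 0.28 against 0.00). In joint-node Treg 2 of 6 rose (5.70% called, 0.10 against -0.02) and in joint-node Tconv 1 of 6 (2.79% called, 0.09 against 0.01). In the ileum 0 of 6 passed in Treg (0.729% called) or in Tconv (1.31% called), and in synovial Treg 0 of 7 (0.156% called). No receptor or binder, granule protein or degrading peptidase passed a genotype test in any of the 7 comparisons. Of the degrading peptidases, Dpp3 and Npepps were expressed at 13.8 to 18.7 and 6.55 to 9.78 CPM per kilobase in all groups, while Mme, the neprilysin that cleaves enkephalin on cell surfaces, did not exceed 0.926, in WT synovial Treg.

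Between cell types more genes of the route passed, and so did more of all genes. Of 6 tested trimming genes, Cpe included, 3 were higher and 1 lower in mesenteric-node Treg than in Tconv. In joint-node Treg 3 were higher and 2 lower, and in ileal Treg 2 of 6 were higher (14.8% of all genes called). Of the tested convertases, Furin and Pcsk1 included, 1 of 6 was higher in mesenteric-node Treg. In joint-node Treg 2 of 5 were higher and 1 lower. Cpd was higher in Treg by 2.70 ± 0.22 on the log2 scale in the mesenteric node (adjusted p = 1.5e-06) and by 2.75 ± 0.19 in the joint nodes (adjusted p = 2.2e-08). Rnpep was higher in Treg by 0.72 ± 0.08 (adjusted p = 1.7e-05) and 0.77 ± 0.06 (adjusted p = 1.1e-07) at the same sites. Scg5, the chaperone of PC2, was lower in Treg by -1.24 ± 0.25 (adjusted p = 0.0021) and -0.88 ± 0.24 (adjusted p = 0.0084), and Ctsl, a cathepsin that can cleave proenkephalin, by -0.52 ± 0.17 (adjusted p = 0.030) and -0.69 ± 0.12 (adjusted p = 2.1e-04). These node comparisons called 38.6% and 43.2% of all genes, so a call alone places these genes among many.

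As a description, the genes whose log2 CPM followed each of the 4 most closely over the 16 group means were picked from 10608 candidates. For Penk they were Aim2 (Pearson's r = 0.954), Nfkb2 (0.952) and Pmepa1 (0.943). For Pcsk1 they were Fth1 (0.964), Slco2b1 (0.960) and Cnnm2 (0.958), for Furin Tnfsf11 (0.953), Uhrf2 (0.931) and Rnf19b (0.931), and for Cpe Atf6 (0.952), Farp1 (0.935) and Cks2 (0.934). The 16 points share sites, experiments and library depth and are not independent. Among the 4 genes themselves Furin and Cpe were the most alike (r = 0.87) and Penk and Pcsk1 the least (0.50).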

How the data were processed

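RNA of FACS-sorted mouse Treg and Tconv entered a full-length cDNA protocol at either of a pair of input amounts, which are not assigned to libraries, and was sequenced as single reads, per the labels' protocols. The build was GRCm38 and the tools named are Bowtie2 2.3.3.1 and cutadapt 1.15, per the submitters' processing notes; the counting program is not given in the sources used here. The authors deposited raw read counts of 46603 genes and FPKM values of 18964 genes, whose normalisation between samples is not given. FPKM served only to check the order of levels, as log2(FPKM + 1).

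Tests used the deposited counts with edgeR 4.0.16 in R 4.3.3: TMM factors, genes kept by filterByExpr, quasi-likelihood F tests, 1 fit per site with all its libraries, or per cell type for tissue against node. P-values were adjusted by Benjamini-Hochberg over every gene in the fit, with a threshold of 0.05. SE is the log2 change over the root of F, and 95% intervals use the degrees of freedom of the fit. Level differences are log2; CPM of single genes uses TMM library sizes over all 42 libraries, while CPM summed over marker lists uses total counts. Symbols and positions are from GENCODE M21. The floors allow for counting error alone. The reads carry no molecular identifiers, so added noise from repeated reads of the same molecule is not covered.

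The comparisons were TNFdARE against WT per cell type and site, Treg against Tconv and tissue against node (both averaged over genotypes where both had replicates), and the interaction in the nodes. Alternatives were RLE factors, no filter beyond 1 count, DESeq2 1.42.0, the experiment as a replicate block, sheet numbers 33 to 44 as a covariate, each library left out, and, chosen after seeing the data, both ileal Treg libraries of experiment A left out. The labels give the letter as the experiment. Of 18 TNFdARE and WT pairs with the same letter, 8 had deviations from the group means correlated above 0.1 over genes (-0.51 to 0.45, median 0.085). The fits were tested on simulated data. The members and lists were chosen with earlier results of these data known. All 4 members are named in every comparison, list genes only where they passed or as markers, and the 3 most alike genes per member by Pearson's r among genes with a group mean of at least 10 CPM.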

Additional observations from a re-analysis of the deposited data

Results flagged for a closer look

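The Furin difference between Treg and Tconv took opposite directions at different sites, without overlap of the libraries compared. On the log2 scale, Treg over Tconv, it was -1.86 in the ileum and -1.10 in the TNFdARE synovium, against 1.35 in the mesenteric node and 1.03 in the joint nodes. Furin thus stood lower in Treg than in Tconv in the ileum and in the TNFdARE synovium and higher in both nodes. In the WT synovium the Treg libraries, at 99.0 and 523 CPM, lay on either side of the single Tconv library, at 241 CPM. The synovial value did not pass its own test (adjusted p = 1.0 in edgeR's quasi-likelihood test), and the difference between sites was not tested.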

How the results depend on the processing

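Of 30 tested results of the 4 genes that passed, 24 passed under every alternative run, and none of their 392 alternative values changed sign. The 30 include Penk in synovial over joint-node Treg and Pcsk1 in ileal over mesenteric-node Treg, which are given above with no test. The cause of the losses was not tested. Leaving out 1 library gave, on the log2 scale, 1.00 to 1.48 for Penk in ileal Treg, 0.95 to 1.17 for Penk and 0.51 to 0.68 for Furin in mesenteric-node Treg, 0.86 to 1.24 for Penk and 1.88 to 2.73 for Cpe in mesenteric-node Tconv, and -1.37 to -0.93 for Pcsk1 between joint-node Treg and Tconv; the text names the libraries. Pcsk1 without the low-count filter was -1.06 there. Of the Pcsk1 differences given with no test, the one that chose it lay between 3.44 and 3.65, and Treg over Tconv in the TNFdARE synovium between 1.11 and 1.60. Synovial over joint-node Treg lay between 8.15 and 8.58, and ileal over mesenteric-node Treg between 5.63 and 6.85.

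Results that passed only under an alternative were, with DESeq2, Pcsk1 in ileal Treg (1.35) and Tconv (1.85), Cpe in mesenteric-node Treg (1.29), Furin in joint-node Treg (0.31), Penk in synovial Treg (1.27), and between cell types Penk in the synovium (1.21) and Pcsk1 in the mesenteric node (-2.01). Without the filter these were Cpe in mesenteric-node Treg (1.27), Penk in synovial Treg (1.33), the Furin interaction in the mesenteric node (0.57) and Pcsk1 between mesenteric cell types (-2.04), where leaving out 1 library gave -2.92 to -1.34. Cpe in ileal over mesenteric-node Treg ranged from 1.08 to 2.25, and the Furin interaction in the joint nodes passed without WT Tconv C (0.59). The replicate block gave 1.42 for Cpe in mesenteric-node Treg and changed no other call of the 4 genes.

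Sign changes occurred only in differences that did not pass. With 1 library left out these were Cpe in ileal Treg (-1.23 to 1.13), joint-node Treg (-0.08 to 0.15), joint-node Tconv (-0.07 to 1.08) and synovial Treg (-0.92 to 0.39), Furin in mesenteric-node Tconv (-0.02 to 0.10) and synovial Treg (-0.57 to 1.82), Pcsk1 in mesenteric-node Treg (-0.49 to 1.96, and -0.15 with the replicate block), and the interactions of Penk (-0.17 to 0.20) and Pcsk1 (-1.71 to 1.51) in the mesenteric and of Cpe (-1.03 to 0.12) in the joint nodes.

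Counts of called genes moved more. DESeq2 called 729 genes in ileal Treg, 556 in ileal Tconv, 1343 and 680 in mesenteric-node Treg and Tconv, 1503 in joint-node Treg and 932 in synovial Treg, against 116, 208, 842, 350, 838 and 28 with edgeR. Without the filter 1405, 884 and 140 were called in mesenteric-node Treg and Tconv and synovial Treg. With the replicate block 238, 338, 1524 and 0 were called in ileal Treg, ileal Tconv, joint-node Treg and synovial Treg. The interactions, 31 and 66 genes in the mesenteric and joint nodes, gave 169 and 184 with DESeq2, 339 and 224 without the filter and 62 and 136 with the block. The covariate for sheet numbers left 506 in joint-node Treg and 1 in synovial Treg. Leaving out 1 library gave 0 (without WT A) to 1419 (without WT B) in synovial Treg and 36 (without TNFdARE B) to 695 (without WT B) in ileal Treg. Of the groups, 5 hold 1 or 2 libraries, and node levels of Pcsk1 rest on 0 to 52 counts.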
